A study of Mus musculus with 45 samples.

Results

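Forelimb buds of CD1 mouse embryos, an outbred stock, were excised on gestation day 13 and kept in organ culture with the vehicle dimethyl sulfoxide (DMSO), and their RNA was sequenced after 3 h and after 24 h. The comparison holds 10 of the 45 libraries of the series, 5 vehicle libraries of 24 h against 5 of 3 h, taken by their sample titles and with all genes of the deposited count table. Both groups were pooled forelimbs, male and female embryos together, in BGJb medium with ascorbic acid, gentamycin and DMSO, so that the labels set them apart by hours in culture alone. The 3 h limbs had already been dissected and cultured, and limbs that were never cultured were not analysed here. The series was built around bisphenol A, a plastics monomer, in limb culture. From its other 35 libraries, 2 groups with 10 µM bisphenol A (3 and 24 h) and the vehicle group of 48 h, each of 5 libraries, are used below to ask whether the change recurs in other libraries and whether it goes on. The labels do not say how replicates relate to litters or days, so a p-value here measures library-to-library spread, part of which may be technical.

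At this stage the bones of the limb are laid down as cartilage. Mesenchymal cells condense, become chondrocytes that make type II collagen and aggrecan, and in the middle of each element stop dividing and turn hypertrophic, when they make type X collagen and prepare the matrix for mineral. Around the cartilage, muscle precursors fuse into fibres, tendon and joint cells take their places, and the signals that patterned the early bud are switched off. An explanted limb has no blood flow and no nerve supply from the body, and it draws nutrients and oxygen from the medium and gas phase alone.

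The forelimb label held in the data. Tbx5, the forelimb transcription factor, stood at 278 to 300.4 CPM (counts per 1000000, scaled for library composition) at 3 h and 259.5 to 318 CPM at 24 h, while Pitx1, a hindlimb factor, stood at 4.39 to 6.12 and 1.64 to 4.24 CPM. Tbx4, which in the limbs belongs mainly to the hindlimb, was present at 18.8 to 21.5 and 18.9 to 26.4 CPM.

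The libraries held 17550102 to 24770277 counts each. The first principal component of log2 CPM took 39.8% of the variance and separated the 5 libraries of 24 h from the 5 of 3 h. On the next component (16.2%) the 24 h libraries spread apart, replicates 1 and 3 at one end and 4 and 5 at the other, and this went with epidermal transcripts: the 24 genes of an epidermis list took 0.215% and 0.139% of the counts in replicates 1 and 3 of 24 h, 0.0480% in replicate 2, and 0.0183% and 0.0180% in replicates 4 and 5, against 0.0645 to 0.123% at 3 h. What set these libraries apart was not tested, and where a list's count of 2 or more moved by over 1.5 times without replicates 1 and 3 or without 4 and 5, the count without them is given, or a range over single libraries left out that covers it. A gene was called when edgeR's quasi-likelihood test, adjusted by Benjamini-Hochberg over the 17081 genes tested, gave p below 0.05, and only called genes are said to have risen or fallen. A value in brackets after a gene is its log2 fold change of 24 h over 3 h ± SE, or its fold where so marked. By that rule 30.0% of the tested genes were called, 16.3% higher (2781 genes) and 13.8% lower (2350), and the shares of a gene list are to be read against these. The CPM of the groups did not overlap in 21.9% of the tested genes. Of 1046 distinct genes on 53 lists, 1008 passed the filter on low counts and were tested, so a count over a list leaves out its most weakly expressed members.

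**Figure D1:**
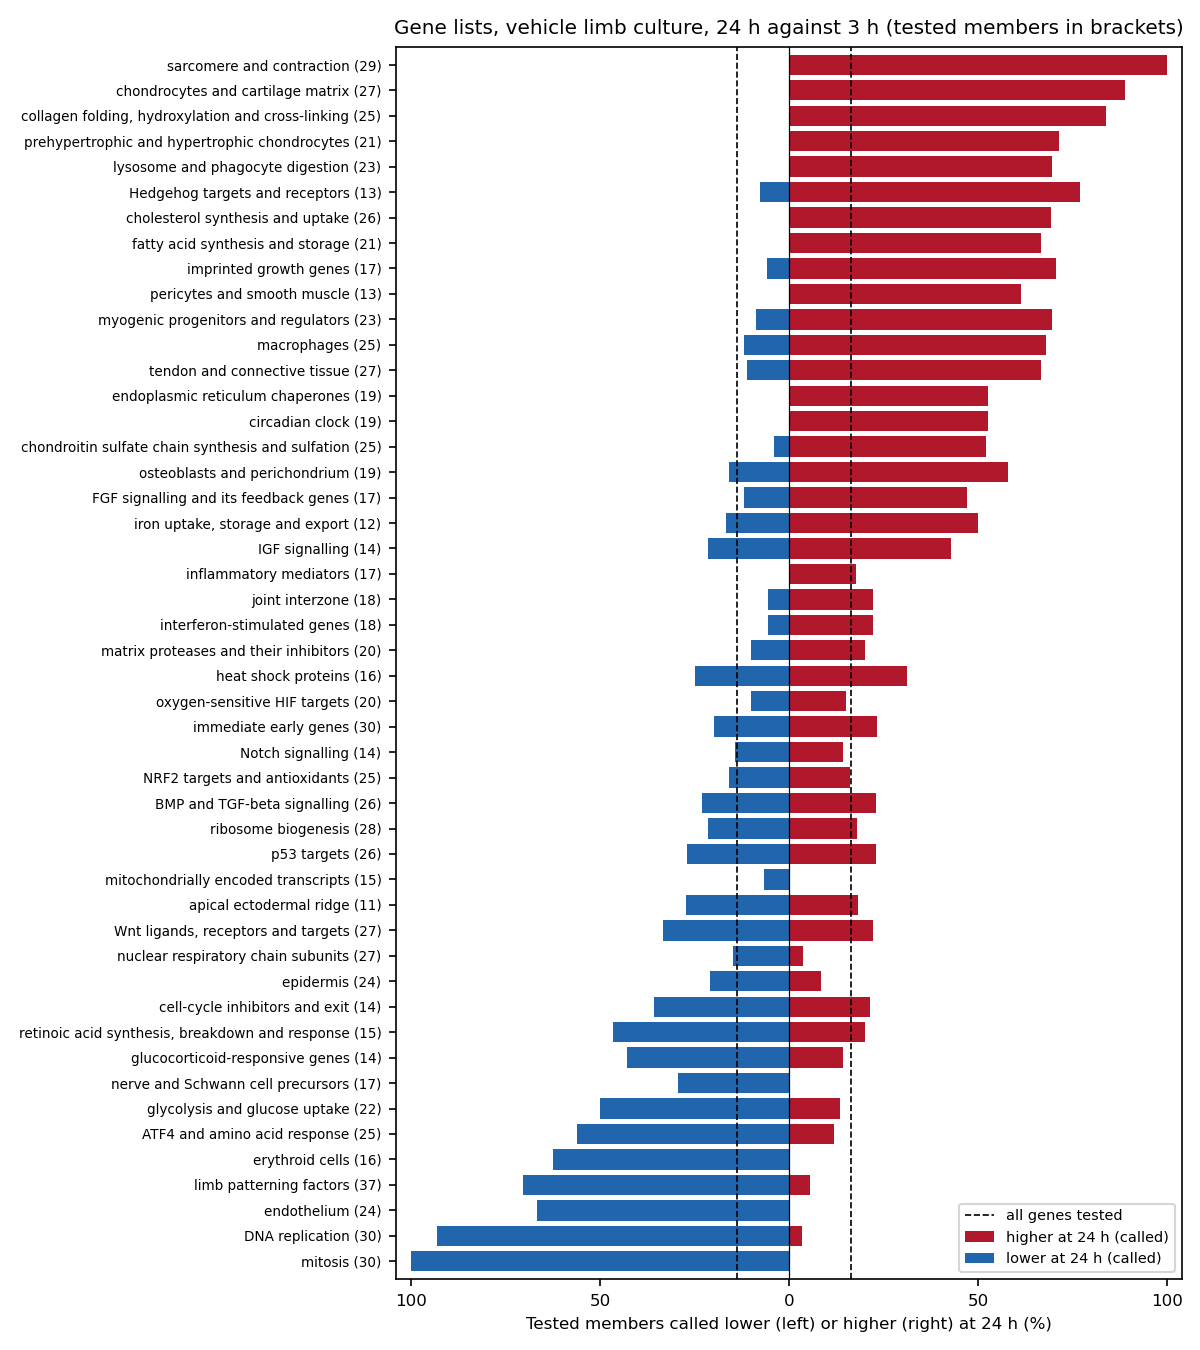
Share of the tested members of each gene list (10 or more tested members, number in brackets) called higher at 24 h (red, to the right) or lower (blue, to the left) in vehicle, in percent; dashed lines mark the shares over all genes tested, 16.3% and 13.8%. Sarcomere, cartilage and collagen-modifying genes reach furthest to the right, and mitosis and DNA replication genes furthest to the left.

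The largest rise was that of Ibsp, the bone sialoprotein that binds mineral, which stood at 1.05, 2.10, 4.56, 0.0965 and 1.02 CPM in the 5 libraries of 3 h and at 224, 252, 201, 138 and 121 CPM in those of 24 h. The lowest 24 h library lay far above the highest 3 h library, and the rise was 103.6-fold (log2 fold change 6.70 ± 0.42, adjusted p = 5.74e-08), from a 3 h level at which a few counts decide the fold. Gpnmb, a lysosomal membrane glycoprotein of macrophages and bone cells, ran from 0.607 to 1.23 CPM at 3 h and from 29.2 to 45.1 CPM at 24 h, 36.7-fold higher. The other 8 of the 10 largest rises were Slc13a5 (a citrate transporter, 17.7-fold), Lyz2 (lysozyme of phagocytes, 12.0-fold), Col10a1 (type X collagen, 9.98-fold), C1qtnf3 (9.06-fold), Clec3b (tetranectin, 7.66-fold), Smpd3 (a sphingomyelinase needed for mineralisation, 7.32-fold), Spp1 (osteopontin, 7.08-fold) and Ms4a7 (a macrophage membrane protein, 6.88-fold). In all 10 the groups did not overlap, which the rule for naming them required.

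The 10 largest falls were of mixed origin. Gpr17, a receptor known from oligodendrocyte precursors, fell from 7.93–10.9 to 0.876–1.81 CPM, 7.55-fold lower, and Cyp1a1, the classical target of the aryl hydrocarbon receptor, from 14.7–34.1 to 2.997–5.67 CPM, 6.70-fold lower. Plvap, which forms the diaphragms of fenestrated endothelium, fell 6.26-fold and Aplnr, the apelin receptor of endothelium, 5.92-fold. Ednrb, the endothelin receptor of neural crest cells and of vessels, fell 4.16-fold, and Hist1h2ae, a histone gene, 4.68-fold. The other 4, Gabrp (6.26-fold), Dlx2 (5.17-fold), Dlx1 (4.63-fold) and Ovol1 (4.41-fold), had within 24 h their highest values in replicates 1 or 3, the libraries with the most epidermal transcripts. Ovol1, an epithelial transcription factor, stood at 10.1, 0.622, 4.98, 0.164 and 0.502 CPM in replicates 1 to 5 of 24 h against 10.2 to 17.6 CPM at 3 h.

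**Figure D2:**
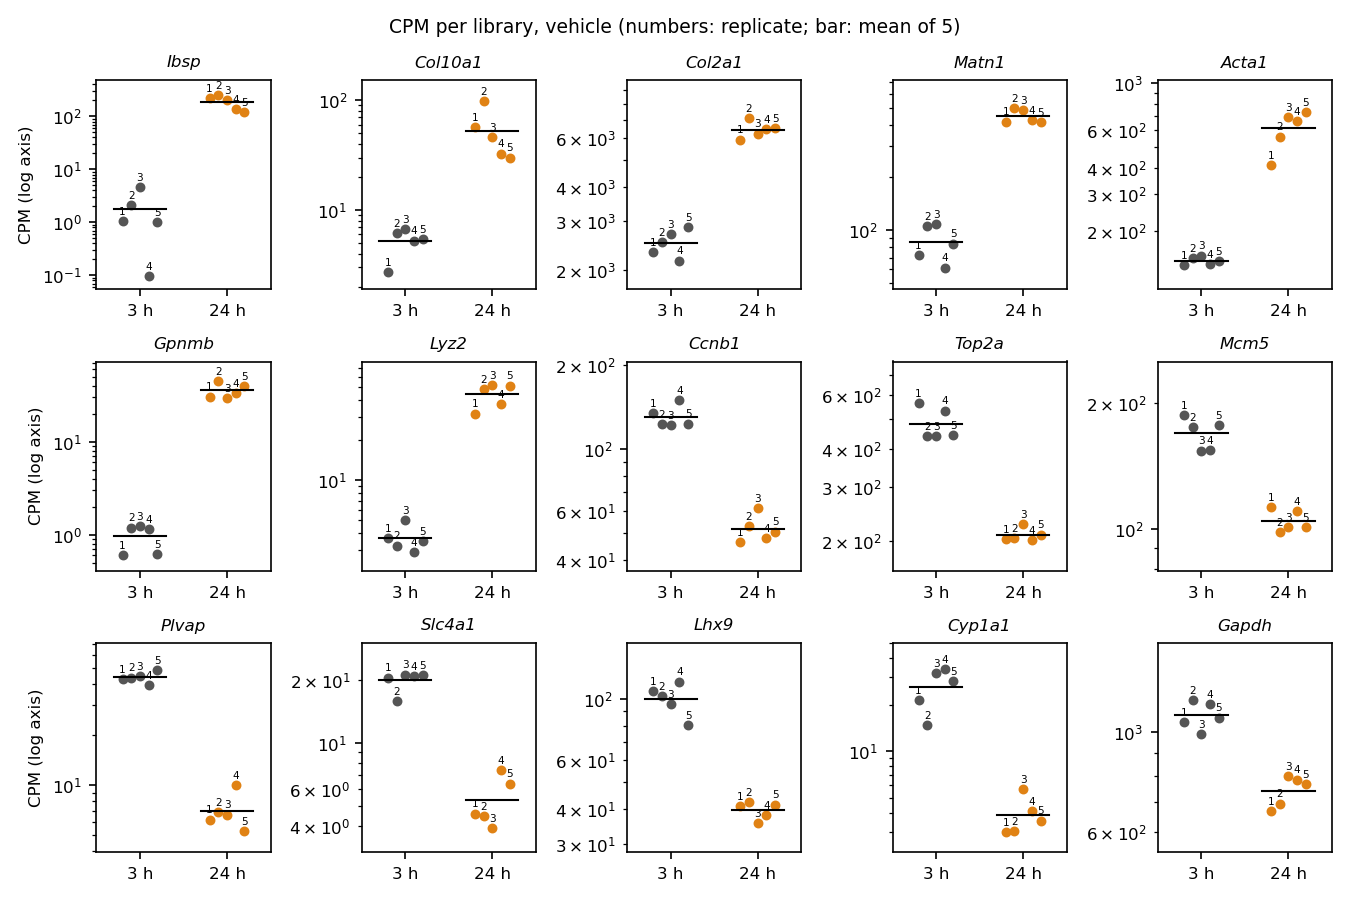
CPM of 15 genes in each vehicle library (log axis), 3 h in grey and 24 h in orange, with replicate numbers at the points and the mean of 5 as a bar. In all 15 the points of the 2 times do not overlap.

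Genes of mitosis fell as a block. All 30 tested members of the mitosis list fell, with a median log2 fold change of -1.20 against 0.00 over all genes tested, and in all 30 the groups did not overlap. In bulk RNA, fewer cells of a kind and less RNA per cell cannot be told apart, here and in the lists that follow. Ccnb1, cyclin B1, which drives entry into mitosis, stood at 134, 123, 122, 149 and 123 CPM at 3 h and 46.4, 52.8, 61.1, 47.8 and 50.4 CPM at 24 h. The highest 24 h library was far below the lowest of 3 h, and the log2 fold change was -1.33 ± 0.08 (adjusted p = 6.35e-08). Top2a, the topoisomerase that untangles sister chromatids, stood at 565, 439.8, 441, 534 and 443 CPM at 3 h and 203, 205, 227, 202 and 209.9 CPM at 24 h. The 24 h libraries lay closer together than those of 3 h, and the fall was 2.32-fold. The steepest falls on the list were those of Ect2, an exchange factor for cytokinesis (-1.48 ± 0.14), Cenpe, a kinetochore motor (-1.38 ± 0.09), and Cenpf, a kinetochore protein (-1.34 ± 0.09). The smallest was that of Cdk1, the kinase partner of cyclin B, at -0.74 ± 0.06. Spindle genes such as Tpx2 and Plk1, a spindle assembly factor and a mitotic kinase, and Cdc20, an activator of the anaphase-promoting complex, lay between, at -1.21 ± 0.06, -1.19 ± 0.10 and -1.28 ± 0.09.

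Replication genes fell too, by less. Of 30 tested members, 28 fell and 1 rose, with a median log2 fold change of -0.62. Mcm5, a subunit of the replicative helicase, stood at 188, 175, 154, 154 and 177 CPM at 3 h and 113, 98.1, 101, 109.9 and 101 CPM at 24 h. The groups did not overlap and the fall was 1.62-fold (adjusted p = 2.84e-06). Chaf1a, a subunit of the histone chaperone of new chromatin, fell 1.82-fold, and Pcna, the sliding clamp of the polymerases, 1.45-fold. Ccne1, cyclin E1 of the G1 to S transition, was the member that rose, by 0.28 ± 0.09 with overlapping groups, and this call was lost in 4 of the 10 fits that left out a library. E2f1, a transcription factor of replication genes, was not called, at -0.26 ± 0.12. Among inhibitors of the cell cycle, Cdkn1a (p21) rose 2.13-fold and Cdkn1c (p57), which chondrocytes and muscle cells make as they stop dividing, rose 1.51-fold, whereas Cdkn1b (p27) and Cdkn2d (p19) fell (-0.17 ± 0.06 and -0.48 ± 0.14). Cdkn1b kept its call in 4 of the 10 fits that left out a library. Of 14 tested genes on that list of inhibitors and exit genes, 3 rose and 5 fell (3 without replicate 3 or 5 of 24 h or replicate 1 or 5 of 3 h), the third riser being Ccnd3, cyclin D3, at 0.71 ± 0.08. Ccnd1, cyclin D1, was not called (0.13 ± 0.06).

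Mitosis genes are known to share short promoter elements, so some of their promoters are printed here. In mammals a CCAAT box and a cell-cycle homology region (CHR) lie near the start sites of many late cell-cycle genes, and replication genes carry sites for E2F factors. RefSeq windows of 300 bases (250 before to 50 after the annotated start, build GRCm38.p6) were found for 26 of the 30 mitosis genes. The CHR letters TTTGAA, on either strand, were in 20 of the 26 windows (76.9%), against 17.9% of all 32851 windows of the table and 11.8% of the windows of 11955 tested genes. The letters CCAAT, on either strand, were in 23 of the 26 (88.5%), against 37.4% and 38.2%, and both were in 19 (73.1%), against 7.0% and 5.0%. The 6 windows without TTTGAA, those of Birc5, Bub1, Ccnb1, Cenpe, Nek2 and Nusap1, belonged to genes with a median log2 fold change of -1.18, and the 20 with it had a median of -1.17. A match is a description of letters, not a site or a cause. Only these exact letters were searched for, so a window without TTTGAA may hold another form of the CHR. Shown here are 3 windows with both sets of letters and 1, that of Cenpe, with CCAAT but without TTTGAA. They are given in the direction of the gene from 5′ to 3′, the matched letters in capitals. They lie at chr9:70421505-70421804 (Ccnb2, minus strand), chr4:118437294-118437593 (Cdc20, minus strand), chr7:122159185-122159484 (Plk1, plus strand) and chr3:135212313-135212612 (Cenpe, plus strand).
Ccnb2: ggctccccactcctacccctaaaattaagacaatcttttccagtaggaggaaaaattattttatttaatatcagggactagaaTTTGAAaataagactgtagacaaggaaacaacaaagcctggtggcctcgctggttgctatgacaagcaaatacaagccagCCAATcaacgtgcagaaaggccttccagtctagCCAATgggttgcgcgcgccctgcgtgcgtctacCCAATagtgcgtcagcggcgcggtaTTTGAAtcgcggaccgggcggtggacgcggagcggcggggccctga
Cdc20: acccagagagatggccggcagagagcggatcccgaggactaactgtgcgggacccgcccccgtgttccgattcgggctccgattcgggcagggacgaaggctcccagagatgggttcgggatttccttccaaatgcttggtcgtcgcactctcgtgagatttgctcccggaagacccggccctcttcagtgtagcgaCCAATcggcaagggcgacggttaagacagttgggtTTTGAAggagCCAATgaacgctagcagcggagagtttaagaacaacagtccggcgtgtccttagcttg
Plk1: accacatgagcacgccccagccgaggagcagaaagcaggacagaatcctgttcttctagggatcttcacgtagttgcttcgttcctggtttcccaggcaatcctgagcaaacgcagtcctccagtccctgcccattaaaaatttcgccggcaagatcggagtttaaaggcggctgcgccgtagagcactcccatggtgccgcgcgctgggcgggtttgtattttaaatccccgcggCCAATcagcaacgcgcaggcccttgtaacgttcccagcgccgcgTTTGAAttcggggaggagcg
Cenpe: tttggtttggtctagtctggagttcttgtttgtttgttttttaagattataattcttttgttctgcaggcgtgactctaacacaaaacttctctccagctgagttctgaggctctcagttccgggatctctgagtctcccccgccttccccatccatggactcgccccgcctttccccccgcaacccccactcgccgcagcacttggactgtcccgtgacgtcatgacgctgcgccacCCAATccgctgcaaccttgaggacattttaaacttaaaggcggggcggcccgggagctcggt

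The window of Ccnb2, cyclin B2, held 3 CCAAT matches, each 33 bases after the one before, and a TTTGAA match just past the start. The gene itself fell from 60.3–70.3 to 23.4–32.6 CPM, with a log2 fold change of -1.29 ± 0.09, and Cdc20 and Plk1, with their own pairs of matches, changed by -1.28 ± 0.09 and -1.19 ± 0.10. Cenpe, with no TTTGAA in its window, changed by -1.38 ± 0.09. Over all tested genes with a window, 172 of the 600 that held both elements fell and 65 rose (28.7% and 10.8%), against 1795 and 2053 of all 11955. With the genes of the mitosis and replication lists taken out, the shares among the remaining 579 were 26.1% and 11.2%. Each list holds 30 genes, so other cell-cycle genes may remain among the 579.

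Replication genes more often held the E2F letters TTTCGCGC or TTTGGCGC, on either strand: 8 of 24 windows (33.3%), against 0.8% of all windows and 1.5% of those of tested genes. The 8 genes were Cdt1, Mcm3, Mcm5, Mcm6, Mcm7, Orc1, Pola1 and Rfc3, all of which fell. Of the 174 tested genes with these letters, 29.9% fell and 6.3% rose. As examples, the windows of 2 helicase subunits follow, at chr8:75109259-75109558 (Mcm5, plus strand) and chr1:128359656-128359955 (Mcm6, minus strand), with the E2F letters in capitals, where overlapping matches on opposite strands form 1 longer run.
Mcm5: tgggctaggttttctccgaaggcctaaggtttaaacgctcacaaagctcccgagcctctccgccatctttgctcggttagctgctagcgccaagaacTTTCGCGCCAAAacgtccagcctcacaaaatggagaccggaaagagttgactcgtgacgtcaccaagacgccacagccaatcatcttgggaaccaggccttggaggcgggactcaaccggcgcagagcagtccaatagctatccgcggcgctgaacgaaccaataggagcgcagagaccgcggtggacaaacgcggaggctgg
Mcm6: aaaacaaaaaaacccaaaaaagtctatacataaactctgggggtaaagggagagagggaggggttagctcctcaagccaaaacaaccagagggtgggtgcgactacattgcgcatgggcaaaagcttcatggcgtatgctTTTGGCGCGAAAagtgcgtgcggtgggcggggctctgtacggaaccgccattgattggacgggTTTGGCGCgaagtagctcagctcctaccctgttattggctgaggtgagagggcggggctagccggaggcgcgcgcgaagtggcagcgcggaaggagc

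Cartilage genes rose together, in a count of 24 of 27 tested with none lower and a median log2 fold change of 1.48. In all 24 the groups did not overlap. Col2a1, the type II collagen of cartilage, stood at 2319, 2517, 2690, 2160 and 2861 CPM at 3 h and 5941, 7089, 6243, 6484 and 6553 CPM at 24 h. Every 24 h library held more than 2 times the CPM of the highest 3 h library, and the rise was 2.58-fold (adjusted p = 2.99e-08). Matn1, matrilin-1 of mature cartilage, stood at 72.3, 106, 108, 61.4 and 84.0 CPM at 3 h and 415, 497, 480.9, 426 and 414 CPM at 24 h. The rise was 5.17-fold, larger than that of Col2a1, and relative to their mean the 24 h libraries were the tighter group. Other steep rises on the list were those of Ucma, a secreted protein of the growth plate (3.06 ± 0.52), Comp, a matrix protein of cartilage and tendon (2.56 ± 0.19), Snorc, a chondrocyte proteoglycan (2.45 ± 0.32), and Epyc, epiphycan (2.35 ± 0.22). The cartilage collagen genes Col9a1 and Col11a1 rose by less, by 1.20 ± 0.08 and 1.14 ± 0.11, as did Fgfr3, the FGF receptor of chondrocytes, by 0.86 ± 0.07. The 3 members not called were the transcription factors Sox9 (-0.14 ± 0.08), Sox5 (0.22 ± 0.09) and Trps1 (0.20 ± 0.09), while Sox6, the partner of Sox5, rose by 0.61 ± 0.12. Without replicates 1 and 3 of 24 h, 26 of the 27 were called higher, Sox9 being the exception.

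Genes of prehypertrophic and hypertrophic chondrocytes rose in 15 of 21 cases, none fell, and the median was 1.00. Ihh, the Hedgehog ligand of prehypertrophic cells, stood at 19.5, 24.6, 22.0, 19.01 and 25.1 CPM at 3 h and 49.4, 46.0, 36.0, 47.9 and 40.5 CPM at 24 h. The groups were well apart, with a rise of 1.99-fold. Col10a1, type X collagen, stood at 2.71, 6.12, 6.71, 5.26 and 5.46 CPM at 3 h and 56.8, 98.3, 46.4, 32.6 and 30.1 CPM at 24 h. It rose 9.98-fold (adjusted p = 1.65e-06) with a wide spread at 24 h, where the highest library held more than 3 times the lowest. Of the factors that drive hypertrophy, Mef2c rose 2.18-fold and Runx2 1.56-fold, and Sp7 (osterix) rose 2.47-fold. Mef2c is also made by muscle. At 24 h it was lowest in replicate 1 (203 CPM), the 24 h library with the smallest share of sarcomere transcripts (0.466%). The part of muscle in its rise was not tested. Alpl, the phosphatase that frees phosphate for mineral, rose 3.21-fold, Panx3, a channel of hypertrophic cells and osteoblasts, 5.32-fold, Mmp9, a gelatinase of cells that resorb cartilage, 3.47-fold, and Dmp1, a matrix protein of mineralised tissue, 5.46-fold from a level of 0.227 to 0.442 CPM. Not called were Pth1r, the parathyroid hormone-related protein receptor (0.21 ± 0.10), its ligand Pthlh (0.32 ± 0.16), Vegfa (0.23 ± 0.10), Bmp6 (0.20 ± 0.21), Sema3c (-0.01 ± 0.13) and Slc38a2 (-0.21 ± 0.10). Mmp13 and Phospho1 had too few counts to be tested.

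Osteoblast and perichondrium genes rose in 11 of 19 cases and fell in 3. Col1a1, type I collagen, stood at 1270 to 1873 CPM at 3 h and 2872 to 3207 CPM at 24 h, a rise of 1.90-fold, and Col1a2 rose 1.49-fold. Low-level bone genes rose by more, Ifitm5 (2.32 ± 0.32) and Omd, osteomodulin (2.35 ± 0.34), each from under 3 CPM at 3 h. Tnfsf11, the osteoclast-inducing cytokine RANKL, was called higher at 1.45 ± 0.46 with overlapping groups, and lost that call in 4 of 10 fits that left out a library. Bglap, osteocalcin, stood below 1 CPM in all 10 libraries and was not called. The 3 that fell, Msx2 (-1.85 ± 0.20), Dlx3 (-0.77 ± 0.20) and Twist1 (-0.45 ± 0.16), are also made by ectoderm or undifferentiated mesenchyme. Twist1 kept its call in 3 of the 10 fits that left out a library, and without replicates 4 and 5 of 24 h 1 of the 3 was called.

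The enzymes that fold and link collagen rose in 21 of 25 cases, none fell, and the median was 0.58. Creb3l1, a transcription factor of the secretory pathway in bone-forming cells, stood at 23.9, 25.7, 33.6, 22.2 and 34.3 CPM at 3 h and 54.9, 64.7, 59.1, 64.1 and 69.2 CPM at 24 h, with no overlap and a rise of 2.23-fold. The procollagen N-proteinases Adamts2 and Adamts3 rose 1.91-fold and 1.93-fold, and the cross-linking oxidases Lox, Loxl1, Loxl3 and Loxl4 rose 1.502-fold, 1.79-fold, 1.88-fold and 2.13-fold. The collagen chaperone Serpinh1 (HSP47) changed by 0.25 ± 0.09, called, but not in 7 of the 10 fits that left out a library. P4ha1, a prolyl hydroxylase subunit, rose by 0.33 ± 0.08, and its relatives P4ha2 (-0.14 ± 0.11) and P4hb (0.15 ± 0.06) were not called, nor were Loxl2 (-0.04 ± 0.08) and P3h2 (0.31 ± 0.12).

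The makers of chondroitin sulfate, the sugar chain of aggrecan, rose in 13 of 25 cases and fell in 1, with a median of 0.31. Chst11, the 4-O-sulfotransferase of cartilage, stood at 74.5, 79.9, 82.4, 73.0 and 75.5 CPM at 3 h and 139, 186, 169, 155 and 145 CPM at 24 h, with no overlap and a rise of 2.06-fold. Xylt1, which starts the chain, rose 2.10-fold, and Slc26a2, the sulfate transporter, 1.46-fold. The paired synthetases of activated sulfate went opposite ways: Papss2, the form that cartilage depends on, rose from 153–166 to 208–307 CPM (0.68 ± 0.08), and Papss1 fell from 149–168 to 125–137 CPM (-0.28 ± 0.06), both without overlap. Chst3, Chst15, Chsy3, Csgalnact2, Xylt2, B4galt7, B3galt6, Ugdh, Dsel, Impad1 and Has2 were not called, with log2 fold changes between -0.13 and 0.25.

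Joint and protease genes rose in shares nearer that of all genes than tendon genes did. Of 18 interzone genes, 4 rose and 1 fell (2 with DESeq2). These shares, 22.2% and 5.56%, stand against 16.3% and 13.8% of all genes tested. Gdf5, the growth factor that marks the interzone, stood at 81.4, 79.1, 68.5, 70.1 and 105 CPM at 3 h and 63.9, 58.5, 42.9, 64.5 and 54.0 CPM at 24 h, a fall of 1.42-fold (adjusted p = 0.00603) with no overlap between a 3 h minimum of 68.5 CPM and a 24 h maximum of 64.5 CPM. Trpv4, a calcium channel of chondrocytes that the list also holds, rose 3.000-fold, and Wnt9a (0.23 ± 0.13), Osr2 (0.18 ± 0.09) and Erg (-0.05 ± 0.07) were not called. Tendon and connective tissue genes rose in 18 of 27 cases (66.7%) and fell in 3 (11.1%). Scx, scleraxis, the transcription factor of tendon cells, rose from 34.1–47.1 to 65.0–107 CPM (2.12-fold), and Tnmd, tenomodulin, from 8.004–23.98 to 33.8–44.1 CPM (2.82-fold), whereas Mkx, Mohawk, another tendon factor, fell (-0.28 ± 0.07) with overlapping groups. The small proteoglycans Bgn (2.65-fold) and Fmod (2.44-fold) and Eln, elastin (2.80-fold), rose. The early mesenchyme genes Prrx1 (-0.37 ± 0.07) and Fbln1 (-0.38 ± 0.09) were the other 2 that fell. Of 20 tested proteases and inhibitors, 4 rose (Timp2, Mmp2, Mmp14 and Adamts20) and 2 fell, among them Timp3 (-0.23 ± 0.08). Timp3 lost its call in 4 of the 10 fits that left out a library and Adamts20 in 2.

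Muscle genes rose, those of the contractile apparatus by the most. All 29 tested sarcomere genes rose, with a median of 1.59, and in 27 of them the groups did not overlap. Acta1, skeletal alpha-actin, stood at 139, 149, 154, 139.8 and 144 CPM at 3 h and 412, 560.5, 690.4, 665 and 733 CPM at 24 h. The 3 h libraries were nearly equal and every 24 h library was at least 2 times higher, with the lowest value in replicate 1, the library with the most epidermal transcripts; the rise was 4.22-fold (adjusted p = 3.60e-08). Per length, in the authors' FPKM, the embryonic myosin heavy chain Myh3 went from 54.2 ± 5.62 to 159 ± 38.4, the perinatal Myh8 from 6.57 ± 0.624 to 25.1 ± 6.66 and the slow Myh7 from 2.77 ± 0.359 to 5.76 ± 1.69 (mean ± SD, n = 5), so that Myh3 was the most abundant of the 3 at both times. Cryab, a small heat shock protein of muscle, rose 3.88-fold, and Cox6a2, the respiratory chain subunit particular to striated muscle, by 1.797 ± 0.24 on the log2 scale. Upstream, 16 of 23 myogenic genes rose and 2 fell (1 without replicates 1 and 3 of 24 h). Myog, myogenin, which commits myoblasts to fuse, stood at 108, 111, 96.1, 90.5 and 112 CPM at 3 h and 161, 182, 201, 207 and 219 CPM at 24 h, with no overlap and a rise of 1.88-fold, and Mymk, the fusion protein myomaker, rose 3.16-fold. Myod1 rose by 0.50 ± 0.13 with overlapping groups. Of the genes of earlier progenitors, Pax3 fell (-1.13 ± 0.37) from 0.718 to 1.91 CPM, a call lost in 4 of 10 fits that left out a library, Eya1 fell (-0.56 ± 0.11), and Pax7 was not called (0.36 ± 0.15). Subunits of the acetylcholine receptor, which muscle makes before nerves reach it, rose as well: Chrna1 by 1.46 ± 0.14, Chrnd by 1.74 ± 0.19 and Chrng by 1.39 ± 0.14.

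Limb patterning factors fell in 26 of 37 cases and rose in 2, with a median of -0.48. Lhx9, a LIM factor of the distal bud, stood at 106, 102, 95.4, 115 and 80.4 CPM at 3 h and 41.1, 42.5, 35.5, 38.1 and 41.5 CPM at 24 h. The groups were far apart and the fall was 2.51-fold (adjusted p = 1.04e-07). Dach1, Sall3, Msx1 and Alx4, factors of distal or anterior mesenchyme, fell, with log2 fold changes of -1.52 ± 0.14, -1.79 ± 0.30, -1.11 ± 0.12 and -1.07 ± 0.11. Hox genes of the autopod fell by less, Hoxd13 (-0.37 ± 0.06) and Hoxa13 (-0.51 ± 0.09), and Hoxa11 (0.08 ± 0.10), Hoxd11 (-0.08 ± 0.08), Hoxa9 (0.03 ± 0.07) and Hoxd9 (-0.02 ± 0.10) were not called. Meis2 and Meis1, factors of the proximal limb, fell (-1.15 ± 0.24 and -0.90 ± 0.24) with overlapping groups. Etv5, a target of FGF signalling (0.93 ± 0.07), and Tbx15 (0.32 ± 0.06) were the 2 that rose. Shh had too few counts to be tested.

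Among signalling pathways, Hedgehog targets and receptors rose in 10 of 13 cases and fell in 1, with a median of 0.75. Gli1, a transcription factor that Hedgehog signalling induces, stood at 62.0, 77.8, 86.2, 73.9 and 71.9 CPM at 3 h and 153, 124, 147, 138 and 129.9 CPM at 24 h, with no overlap and a rise of 1.86-fold. The receptor Ptch1 (1.75-fold) and the decoy Hhip (1.68-fold), both induced by the pathway, rose, as did the ligand Ihh given above. Smo, the signal transducer, was not called (0.16 ± 0.06), and the inhibitor Sufu fell (-0.22 ± 0.07), a call lost in 3 of 10 fits that left out a library. Of 17 genes of FGF signalling, 8 rose, among them Fgf7 (2.53-fold) and the feedback inhibitor Spry4 (1.44-fold), 2 fell, and Dusp6 (-0.19 ± 0.09) and Fgf10 (-0.25 ± 0.09) were not called. With DESeq2 4 of the 17 fell, and without replicates 4 and 5 of 24 h 1 did. BMP and TGF-beta genes split evenly, 6 of 26 higher and 6 lower: Ctgf, a secreted matricellular protein, rose 3.93-fold and Ltbp2, a fibrillin-binding protein, 3.31-fold, while the BMP targets Id2 and Id3 fell (-0.70 ± 0.07 and -0.60 ± 0.11) and Id1 (-0.19 ± 0.10), Bmp2 (-0.17 ± 0.08) and Bmp4 (-0.08 ± 0.07) were not called.

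Wnt genes fell in 9 of 27 cases and rose in 6. Wif1, a secreted Wnt inhibitor, fell from 69.8–81.9 to 36.2–44.3 CPM (1.86-fold), and Wnt5a, a ligand of the outgrowing limb, from 354–418 to 254–302 CPM (1.40-fold), both without overlap. Frzb, an antagonist made by cartilage, rose 1.79-fold. Axin2 and Lef1, targets of canonical Wnt signalling, fell (-0.79 ± 0.20 and -1.20 ± 0.21). Axin2 stood at 84.4, 37.7, 61.8, 34.9 and 38.9 CPM in replicates 1 to 5 of 24 h, highest in the 2 libraries with the most epidermal transcripts. Without replicates 4 and 5 of 24 h 5 Wnt genes fell, and without replicates 1 and 3 of 24 h 13 did; the part of epidermal cells in these counts was not tested. Retinoic acid genes fell in 7 of 15 cases and rose in 3: the synthesis enzyme Aldh1a2 (-0.92 ± 0.19), the degrading enzymes Cyp26a1 (-1.52 ± 0.31) and Cyp26b1 (-0.77 ± 0.12), the receptor Rarb (-0.92 ± 0.19) and the retinol transporter Stra6 (-1.296 ± 0.12) fell, while Aldh1a3 rose by 0.71 ± 0.12. Of 14 Notch genes 2 rose and 2 fell, shares near those of all genes. Of these 1 rose without replicate 3 of 24 h and 4 fell without replicates 1 and 3, and without replicates 4 and 5 the list gave 1 of each among 15 tested.

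Macrophage genes rose in 17 of 25 cases and fell in 3, with a median of 0.86, and their summed share of the counts went from 0.0131 to 0.0155% at 3 h to 0.0259 to 0.0320% at 24 h, without overlap. Lyz2, lysozyme, stood at 3.70, 3.23, 5.04, 2.90 and 3.50 CPM at 3 h and 31.7, 48.5, 52.0, 37.5 and 51.5 CPM at 24 h, with no overlap and a rise of 12.0-fold (adjusted p = 1.36e-08). The defining receptors rose by much less, Csf1r, the receptor for the macrophage growth factor, by 0.50 ± 0.11 and Adgre1 by 0.86 ± 0.14, both without overlap. Trem2, a receptor for lipids and dying cells, stood at 2.32, 2.77, 1.45, 2.08 and 2.57 CPM at 3 h and 7.86, 7.46, 11.5, 9.44 and 9.35 CPM at 24 h, a rise of 4.08-fold, and C1qb, a subunit of complement C1q, rose 3.08-fold. Some markers of tissue macrophages went the other way, with Lyve1 (-2.30 ± 0.51) and F13a1 (-1.19 ± 0.21) falling, as did Cd14, a co-receptor for bacterial lipid (-1.01 ± 0.29), and Mrc1, the mannose receptor, was not called (-0.08 ± 0.14). Lyve1 is also made by lymphatic endothelium. Lysosomal genes, which all cells use, rose in 16 of 23 cases and none fell, with a median of 0.41: Ctsd, cathepsin D, stood at 76.8 to 94.1 CPM at 3 h and 174 to 207 CPM at 24 h (2.23-fold), and the membrane protein Lamp1 rose 1.33-fold.

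Endothelial genes fell in 16 of 24 cases and none rose, with a median of -0.46. The general markers fell by little: Pecam1 stood at 77.3, 66.5, 82.9, 76.3 and 80.2 CPM at 3 h and 51.4, 56.7, 62.5, 55.1 and 53.2 CPM at 24 h, 1.37-fold lower without overlap, and Cdh5, VE-cadherin, fell 1.38-fold. The 2 largest falls on the list, Plvap from 39.5–48.6 to 5.29–9.94 CPM and Aplnr from 55.5–80.3 to 10.3–14.7 CPM, were larger, 6.26-fold and 5.92-fold. Kdr, the main VEGF receptor, fell (-0.31 ± 0.11) and lost the call in 8 of 10 fits that left out a library. Eng (0.05 ± 0.08), Apln (0.20 ± 0.14), Ramp2 (0.11 ± 0.17), Esm1 (0.14 ± 0.20), Sox17 (-0.37 ± 0.15), Sox18 (-0.01 ± 0.13), Esam (-0.27 ± 0.12) and Erg were not called. Erg is also an interzone gene. Of 13 pericyte and smooth muscle genes, 8 rose, among them Acta2 (2.34-fold), Des (2.28-fold) and Rgs5 (1.54-fold), but Acta2 and Des are made by developing skeletal muscle too, and Pdgfrb, the pericyte receptor, was not called (-0.09 ± 0.06). Without replicates 4 and 5 of 24 h, or without replicate 1 or 2 of 3 h, 5 of the 13 rose.

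Erythroid genes fell in 10 of 16 cases and none rose, with a median of -1.08. Slc4a1, the anion exchanger of red cells, stood at 20.4, 15.8, 21.1, 20.9 and 21.0 CPM at 3 h and 4.60, 4.46, 3.92, 7.39 and 6.38 CPM at 24 h, with no overlap and a fall of 3.69-fold, and Alas2, the first enzyme of erythroid haem synthesis, fell 2.07-fold. The embryonic globin Hbb-y fell 1.65-fold. The adult alpha-globins are near-identical copies whose reads can be split between them: Hba-a1 was not called (-0.27 ± 0.14), and Hba-a2 was at 0 or near 0 in 3 of the 10 libraries and between 59.7 and 132 CPM in the others, so its values are uncertain. Nerve and Schwann cell precursor genes fell in 5 of 17 cases and none rose. Sox10, the transcription factor of Schwann cell precursors and melanoblasts, stood at 18.7, 20.9, 20.5, 14.6 and 18.6 CPM at 3 h and 8.73, 7.91, 7.56, 7.55 and 7.07 CPM at 24 h, 2.41-fold lower without overlap, while Tubb3, the neuronal tubulin, was not called (-0.71 ± 0.28). Without replicates 4 and 5 of 24 h, 3 of the 17 fell and 1 rose. Of 7 melanoblast genes 3 fell, Ednrb, Sox10 and Kit, and Dct (0.14 ± 0.69) and Pmel (0.54 ± 0.35) were not called.

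Epidermal genes varied more within the 24 h libraries than between the 2 times. Krt14, a keratin of basal epidermis, stood at 174, 196, 192, 104.1 and 145 CPM in replicates 1 to 5 of 3 h and 448, 70.9, 194, 15.3 and 19.3 CPM in replicates 1 to 5 of 24 h. The 24 h values ran from far below to far above those of 3 h, and the difference was not called (-0.12 ± 0.65). Krt5, the partner of Krt14 (-0.51 ± 0.58), and Trp63, the master regulator of stratified epithelium (-0.70 ± 0.31), were not called either. Krt1, a keratin of differentiating layers, stood at 10.4, 13.5, 19.5, 3.23 and 8.91 CPM at 3 h and 190.0, 26.9, 197, 2.63 and 3.97 CPM at 24 h. It was called higher (2.92 ± 0.92) with overlapping groups, as was its partner Krt10 (2.53 ± 0.73). In both replicates 1, 2 and 3 of 24 h lay above every 3 h library and replicates 4 and 5 did not. Krt1 kept its call in 5 of the 10 fits that left out a library. Over the list, 2 of 24 rose and 5 fell; without replicates 4 and 5 of 24 h 3 rose and 1 fell, and without replicates 1 and 3 none rose and 18 fell. Leaving out 1 library at a time gave counts of 0 to 3 that rose and 2 to 9 that fell. Genes of the apical ectodermal ridge, the signalling rim of the bud, rose in 2 of 11 cases and fell in 3. Sp8 and Sp9, ectodermal transcription factors, fell (-2.23 ± 0.63 and -1.62 ± 0.35), Sp8 with its 24 h values at 2.43, 0.339, 0.553, 0.0821 and 0.0912 CPM in replicates 1 to 5. Without replicate 3 of 24 h 5 ridge genes fell, and without replicates 4 and 5 1 rose. Fgf8, the ridge growth factor, was not called (-0.55 ± 0.42) at 0.658 to 1.93 CPM at 3 h and 0.231 to 1.14 CPM at 24 h.

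**Figure D3:**
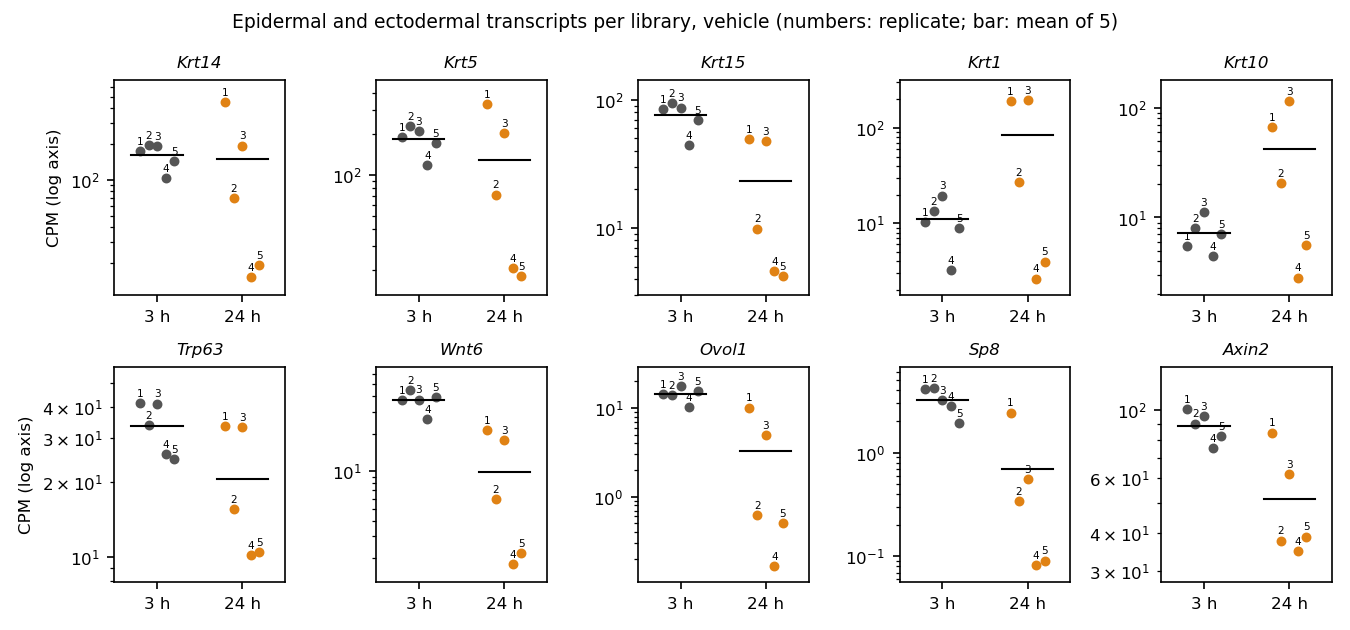
CPM of 10 epidermal or ectodermal transcripts in each vehicle library (log axis), 3 h in grey and 24 h in orange, with replicate numbers at the points and the mean of 5 as a bar. At 24 h replicates 1 and 3 are high and replicates 4 and 5 low in nearly every panel, over a range wider than that of the 3 h libraries.

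Of 22 genes of glycolysis and glucose uptake, 11 fell, 3 rose and 8 were not called, and leaving out 1 library gave 3 to 4 higher and 8 to 13 lower. Gapdh stood at 1053, 1179, 990.5, 1156 and 1077 CPM at 3 h and 668, 694, 798, 785 and 768 CPM at 24 h. The groups did not overlap and the fall was 1.47-fold (adjusted p = 2.18e-05). Slc2a1, the glucose transporter GLUT1, fell 1.68-fold and Pgk1 fell 1.64-fold, while Ldha, lactate dehydrogenase, fell (-0.25 ± 0.08) and lost the call in 7 of 10 fits that left out a library. The 3 that rose, Eno3 (2.27-fold), Pfkm and Aldoc, include the muscle forms of enolase and phosphofructokinase. Of 20 HIF targets 3 rose and 2 fell (4 without replicate 4 of 24 h). Of 27 nuclear respiratory chain genes 1 rose, the muscle subunit Cox6a2, and 4 fell, but 7 fell with DESeq2, with its size factors, or without replicate 3 of 3 h, and 2 with the replicate number as a block. Of 15 mitochondrially encoded transcripts, 1 was called, mt-Nd4l (-1.18 ± 0.38), in 4 of the 10 fits that left out a library.

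Cholesterol synthesis and uptake genes rose in 18 of 26 cases and none fell, with a median of 0.42. Nsdhl, a late enzyme of the pathway, stood at 26.8, 26.8, 27.4, 24.8 and 23.5 CPM at 3 h and 43.3, 42.5, 41.7, 50.4 and 47.8 CPM at 24 h, with no overlap and a rise of 1.75-fold (adjusted p = 2.71e-06). The late enzymes Msmo1 (1.59-fold) and Lss (1.504-fold) rose as well, whereas Sqle, the enzyme that commits squalene to sterols, was not called (0.14 ± 0.08) and Hmgcs1 changed by 0.21 ± 0.07, a call lost in 4 of 10 fits that left out a library. Fatty acid genes rose in 14 of 21 cases and none fell: Scd1, a desaturase, rose 1.70-fold and Cd36, a fatty acid carrier and phagocyte receptor, 2.95-fold, and Fasn, the synthase, was not called (0.12 ± 0.07).

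Stress programmes did not move as one. Genes of the ATF4 and amino acid response fell in 14 of 25 cases and rose in 3, with a median of -0.38. Slc7a5, an amino acid transporter, stood at 142, 158, 169.5, 147 and 163 CPM at 3 h and 94.4, 92.8, 89.2, 75.7 and 80.6 CPM at 24 h, 1.804-fold lower without overlap, and Asns, asparagine synthetase, fell 1.49-fold. Atf4 itself (0.15 ± 0.07) and Ddit3, CHOP (-0.02 ± 0.11), were not called. Chaperones of the endoplasmic reticulum rose in 10 of 19 cases and none fell, with Xbp1, a factor of secretory capacity, 1.64-fold higher and Hspa5 (BiP) 1.27-fold higher, both without overlap. Of 30 immediate early genes 7 rose and 6 fell, among them Atf3, which fell from 15.2–29.5 to 6.22–12.0 CPM (2.77-fold), and Cyr61, a target of YAP and serum response factor, which rose 2.77-fold, while Fos (-0.42 ± 0.26), Junb (-0.41 ± 0.22) and Ier3 (-0.10 ± 0.20) were not called. p53 targets also split, 6 of 26 higher and 7 lower: Cdkn1a and Eda2r rose (2.14-fold), Psrc1 and Gtse1, which serve the spindle, fell (2.07-fold and 1.86-fold), and Mdm2 was not called (0.08 ± 0.07). The inducible heat shock genes Hspa1a and Hspa1b fell (-1.20 ± 0.33 and -0.85 ± 0.31) with overlapping groups, and Hspa1b kept its call in 3 of the 10 fits that left out a library. Inflammatory mediators were scarce: 6 of 23, Il6, Il1b, Cxcl1, Cxcl2, Saa3 and Lcn2, had too few counts to be tested, and of the 17 tested 3 rose, Il33 (1.68 ± 0.34), Ptgs2 (1.85 ± 0.45) and Lif (1.82 ± 0.52), all of them under 4 CPM in every library.

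Circadian genes rose in 10 of 19 cases and none fell. Bhlhe41, a repressor of the clock, stood at 2.65, 3.74, 2.98, 2.99 and 3.42 CPM at 3 h and 9.46, 8.03, 9.22, 11.4 and 11.7 CPM at 24 h, 3.16-fold higher without overlap, and Npas2 rose 3.18-fold, Per2 1.54-fold and Dbp 1.40-fold. Arntl (0.06 ± 0.14), Nr1d1 (0.17 ± 0.22) and Per1 (0.21 ± 0.08), core members of the loop, were not called. With only 3 and 24 h, which need not share a clock hour, phase cannot be read. Time of day and hours in culture cannot be told apart here. Glucocorticoid-responsive genes fell in 6 of 14 cases and rose in 2, Fkbp5 (-0.31 ± 0.07) and Zbtb16 (-1.07 ± 0.30) among those that fell. Targets of the aryl hydrocarbon receptor fell in 3 of 7 cases: Cyp1a1 as given above, Tiparp (-0.69 ± 0.09) and the repressor Ahrr (-0.47 ± 0.14), while Cyp1b1 was not called (-0.37 ± 0.16). Imprinted growth genes rose in 12 of 17 cases and fell in 1. Meg3, a maternally expressed long RNA, stood at 729, 848, 979, 694 and 719 CPM at 3 h and 1790, 1579, 1900, 1671 and 1837 CPM at 24 h, 2.21-fold higher without overlap, and its paternally expressed neighbour Dlk1 rose 2.03-fold. H19 rose 1.76-fold and its neighbour Igf2 1.45-fold, and Nnat, neuronatin, was the member that fell (1.43-fold). H19 was the most abundant of these, at 6333 to 9674 CPM at 3 h and 13271 to 16283 CPM at 24 h.

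The remaining lists lay nearer the shares of all genes, rested on few calls or had counts that varied between fits. For these the range over the 10 fits that left out a library is given. Shares well above the 16.3% of all genes that rose were those of iron (50.0%), IGF signalling (42.9%) and heat shock genes (31.2%). The shares of these 3 lists that fell were 16.7%, 21.4% and 25.0%, against 13.8% of all genes. Ribosome biogenesis genes rose in 5 of 28 cases and fell in 6, and leaving out 1 library gave 4 to 5 higher and 3 to 5 lower, the fewest lower without replicate 1 of 3 h. NRF2 targets rose in 4 of 25 cases and fell in 4, with ranges of 2 to 4 higher and 1 to 5 lower. Heat shock genes rose in 5 of 16 cases and fell in 4 (3 to 5 higher and 3 to 4 lower; without replicates 4 and 5 of 24 h 2 rose and 2 fell), and IGF signalling genes rose in 6 of 14 cases and fell in 3 (3 to 5 higher and 3 to 3 lower). Iron genes rose in 6 of 12 cases and fell in 2 (3 to 6 higher and 2 to 2 lower). Interferon-stimulated genes rose in 4 of 18 cases and fell in 1 (3 to 4 higher and 0 to 1 lower; 2 fell without replicates 1 and 3 of 24 h). Of 8 thyroid hormone genes 2 rose (1 to 2 higher and 0 to 0 lower), of 6 metal-responsive genes 1 rose and 2 fell (1 to 1 higher and 1 to 3 lower), and of 5 sex-linked transcripts, in cultures of both sexes, 1 rose (0 to 1 higher and 0 to 0 lower).

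The same hours were sampled in a separate set of 10 libraries, kept with 10 µM bisphenol A, which shares no library with the vehicle comparison. There edgeR called 28.7% of the genes tested (4883 of 17042), 2465 higher and 2418 lower. Among 16692 genes tested in both sets, 3339 were called in both in the same direction and 0 in opposite directions, which is 65.5% of the vehicle calls and 68.8% of those at 10 µM. Of 5097 vehicle calls, 97.5% had the same sign at 10 µM. Ibsp changed by 6.53 ± 0.36 there against 6.70 ± 0.42 in vehicle, Gpnmb by 5.41 ± 0.23 against 5.20 ± 0.20, and Ccnb1 by -1.21 ± 0.09 against -1.33 ± 0.08. The mitosis list fell in 30 of 30 cases and the sarcomere list rose in 28 of 29 there, and the cartilage list rose in 25 of 26. The lists whose counts differed most between the sets were those of cholesterol (18 of 26 risers in vehicle, 8 of 26 at 10 µM, medians 0.42 and 0.09), glycolysis (11 and 4 of 22 lower) and nuclear respiratory chain genes (4 and 13 of 27 lower). Tested directly, as the difference of the 24 h against 3 h change between the 10 µM and the vehicle libraries, 0 of 18211 genes passed with edgeR and 0 with DESeq2, with 969 (5.32%) at an unadjusted p below 0.05. Among the 5 genes of smallest p were Hemgn, Kcne1l and Fdft1, with differences of 5.49 ± 1.20, -0.67 ± 0.15 and -0.41 ± 0.10 on the log2 scale. Hemgn had few reads, with a mean of 5.6 a vehicle library, and was at 0 in every vehicle library of 24 h, so its fitted difference depends on the prior count and is no bound. A p that misses the threshold does not show that the sets acted alike.

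**Figure D4:**
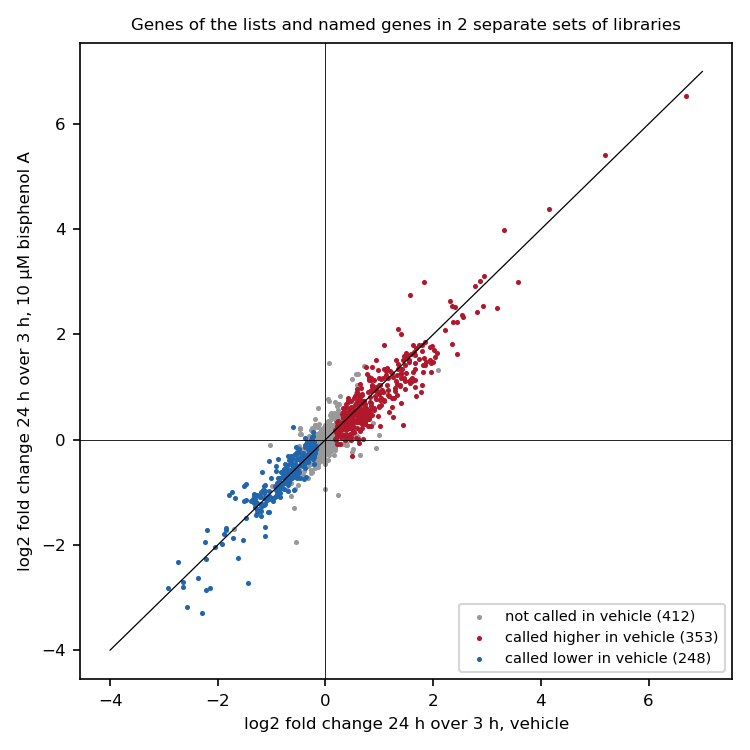
Log2 fold change of 24 h over 3 h in vehicle (x axis) and in the separate libraries kept with 10 µM bisphenol A (y axis), for genes of the lists and genes named in the text, coloured by their call in vehicle; the diagonal line marks equal change. Of the points called higher in vehicle all but 6 of 353 lie above 0 at 10 µM, of those called lower all but 6 of 248 lie below 0, and Ibsp is the point at the upper right.

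To ask which changes belonged to the first day, the change from 3 to 24 h was tested against the change from 24 to 48 h in the 15 vehicle libraries of the 3 times. Both changes use the 24 h libraries, so an error in those libraries moves the 2 in opposite directions. The test called 7.05% of 17731 genes (1250), 718 (4.05%) with the more positive change in the first day and 532 (3.0%) with the more negative. Without replicates 4 and 5 of 24 h the counts were 232 and 246, and without replicate 4 or 5 alone 470 or 457 genes had the more positive first day. All 30 mitosis genes had the more negative change in the first day, as did 21 of 30 replication genes. Ccnb1 went from 129 ± 11.9 CPM at 3 h to 50.9 ± 5.72 at 24 h and 51.0 ± 3.96 at 48 h (mean ± SD, n = 5), with a difference between the 2 days of -1.34 ± 0.15 (adjusted p = 1.20e-05). Its mean at 48 h lay between the lowest and the highest 24 h library. Psrc1, a spindle protein and p53 target, went from 43.6 ± 3.36 to 21.0 ± 3.60 and back to 44.8 ± 3.22 CPM, with a difference of -2.15 ± 0.18 (adjusted p = 1.25e-06). The other genes of smallest p were Gpnmb (3.90 ± 0.30), Tpx2 (-1.29 ± 0.11), Spag5, a spindle gene (-1.44 ± 0.12), and Arhgap11a, a GTPase-activating protein of dividing cells (-1.48 ± 0.14).

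Counts over lists of differentiated tissue ranged widely in this test. They and those that follow are to be read against 4.05% more positive and 3.0% more negative over all genes tested. List counts of this test, here and above, were made with all libraries and not repeated without replicates 4 and 5 of 24 h. Of 27 cartilage genes 21 had the more positive change in the first day and of 29 sarcomere genes 22, none in either list having the more negative. The counts were 4 of 25 for collagen-modifying genes, 2 of 27 for tendon genes and 1 of 20 for osteoblast genes, again with none more negative, and endothelial and nerve genes gave no more positive and 2 more negative first days each, of 24 and 17. Outside these, 17 of 26 cholesterol genes had the more positive first day. Matn1 went from 85.4 ± 20.2 to 440.0 ± 38.6 and 766 ± 132 CPM, a difference of 1.56 ± 0.23. Col1a1 went from 1588 ± 247 to 3011 ± 123 and 6929 ± 802 CPM, with a difference of -0.28 ± 0.16 that was not called. Nsdhl went from 25.6 ± 1.61 to 44.5 ± 3.79 and 33.9 ± 2.13 CPM, with a difference of 1.19 ± 0.13. Stress lists with more than 1 call did not share a direction. The more negative first day was found for 12 of 26 p53 targets, 12 of 25 genes of the ATF4 response and 6 of 30 immediate early genes, with none more positive, whereas 4 of 19 chaperones of the endoplasmic reticulum and 1 of 16 heat shock genes had the more positive first day and none the more negative. NRF2 and HIF targets gave 1 call each, of 25 and 20, both more negative. A single call, as for heat shock, NRF2 and HIF genes, gives a list no direction. Eda2r, a p53 target, went from 2.29 ± 0.927 to 4.90 ± 0.795 and then 26.6 ± 2.44 CPM, with a difference of -1.36 ± 0.34 (adjusted p = 0.0168). Of 37 patterning genes, 1 had the more positive first day and 4 the more negative.

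**Figure D5:**
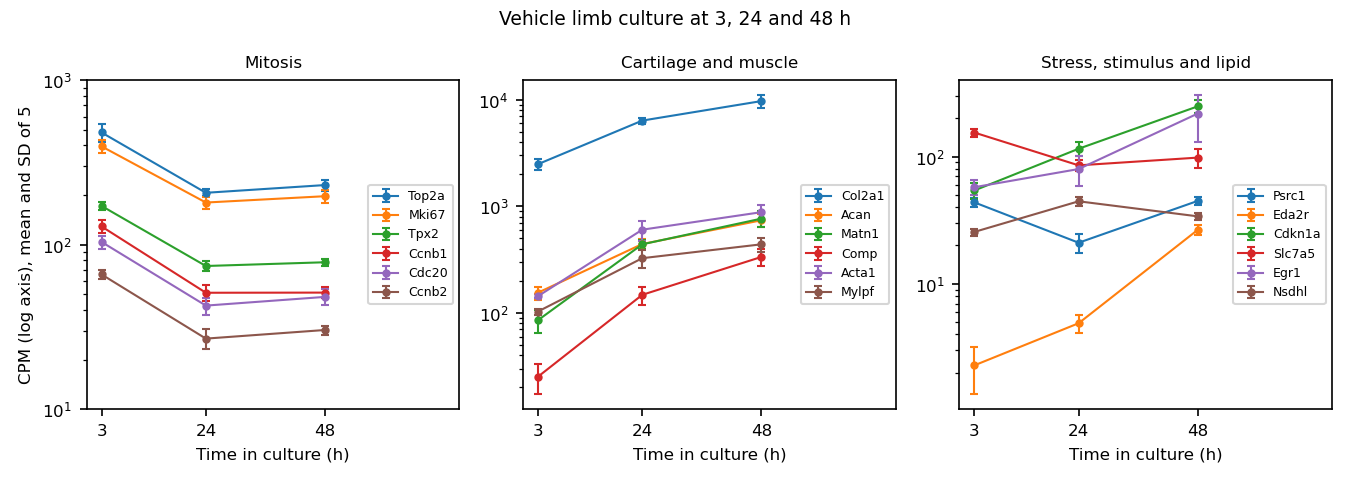
Mean CPM (log axis) with SD of 5 vehicle libraries at 3, 24 and 48 h in culture for genes of mitosis, of cartilage and muscle, and of stress, stimulus and lipid responses. The 6 mitosis genes lie lower at 24 h and near that level at 48 h, the 6 cartilage and muscle genes lie higher at 24 h and again at 48 h, and Psrc1 is back near its 3 h level at 48 h.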

How the data were processed

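RNA of 10 vehicle libraries was compared, and 10 libraries with 10 µM bisphenol A and 5 vehicle libraries of 48 h were set beside them. Members, gene lists and tests were chosen with earlier results of these data known. The deposited read counts per gene, FPKM values, log2 fold changes and adjusted p-values (per the file headers) were made by the authors. The submitters' processing notes name CASAVA 1.8, STAR 2.5, HTSeq 0.6.1, DESeq2 2 and mm10, without roles, and the labels' protocols give selection of RNA with poly-T beads. Whether reads were counted by strand is not stated. A duration given as 3 h for every sample in one protocol text contradicts the titles, which were followed.

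Counts were tested with edgeR 4.0.16 in R 4.3.3 (quasi-likelihood, TMM scaling, genes kept by filterByExpr with a minimum count of 10 and a minimum total of 15, Benjamini-Hochberg over all genes tested). The SE was taken as the absolute log2 fold change over the root of the F statistic, and CPM uses TMM library sizes. Multi-group fits used genes present in each table. Simulated counts with known changes were used to check the fit: 64% of 1.5-fold and 90% of 2-fold changes were called for vehicle, with 8 false calls of 162, over 16756 genes. Changes were planted in 100 genes for each fold, all with a mean count of 50 or more, far fewer genes than the data called. Each gene was drawn on its own, without spread shared between genes, so these rates need not hold for the data. Alternatives were DESeq2 1.42.0, its size factors in edgeR, no filter, the replicate number as a block, and leaving out each library. Promoter windows came from RefSeq (GRCm38.p6), and overlapping genes were not separated. Named were the 10 largest non-overlapping rises and falls of protein-coding genes with a mean count of 50 or more, the first 4 genes of each list and up to 6 of smallest p per list, the 5 of smallest p in each other test, and list members needed to account for a count. Some genes that this rule names are not reported here.

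No libraries were duplicates: chi-square per degree of freedom between libraries of a group was 6.357 to 26.37. Depth of 17550102 to 24770277 counts limits genes of a few counts most.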

Additional observations from a re-analysis of the deposited data

Results flagged for a closer look

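In 39 of 630 sets of 5 libraries (6.19%) the highest or lowest library lay far from the other 4. The rule was Dixon's, a gap to the next library of more than 0.71 of the range. It marks about 1 set in 20 where values are normal and sets independent. CPM need not be normal and the sets share libraries, so the 2 rates cannot be compared strictly. A set was 1 named gene, or 1 measure of the libraries such as depth or epidermal share, at 1 time. All 39 were genes. The CPM of the library that lay apart is given in brackets. Among the 24 h libraries, replicate 1 was highest for Mmp13 (1.86), Pthlh (11.7), Ifitm5 (9.10), Loxl1 (159), Osr2 (53.9), Sp8 (2.43), Sp9 (6.36), Id1 (114), Cyp26b1 (141), Cyp26a1 (2.89), Hmgcs1 (232), Lss (82.3) and Il6 (0.0517) and lowest for Mef2c (203) and Hoxa13 (59.7). At 24 h replicate 2 was highest for C1qtnf3 (97.4), Panx3 (74.0), Mkx (94.2), F13a1 (7.12) and Il1b (0.565) and lowest for Arntl (8.82). At 24 h replicate 3 was highest for Shh (0.369) and Meis1 (13.1) and lowest for Cyr61 (61.3). At 24 h replicate 5 was highest for Mmp2 (533). Among the 3 h libraries, replicate 1 was lowest for Ms4a7 (0.662) and Hba-a2 (0). At 3 h replicate 2 was highest for Birc5 (94.0), Sqle (115), Il6 (0.0566) and Il1b (0.227) and lowest for Adamts3 (9.35) and Slc4a1 (15.8). At 3 h replicate 3 was highest for Lcn2 (0.351) and lowest for Aldh1a2 (37.4). At 3 h replicate 4 was highest for Hmgcs1 (192) and lowest for Fmod (43.8). At 3 h replicate 5 was highest for Fos (23.0) and lowest for Chst15 (54.2). Replicate 1 of 24 h, apart for more genes than any other library, also held the largest share of epidermal transcripts (0.215%), and the link was not tested. Hba-a2 has a near-identical copy, and the values of Il6, Il1b, Lcn2 and Shh rest on a few counts.

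The change from 3 to 24 h differed from that of 24 to 48 h in 1250 genes by edgeR's test of the difference, and both changes use the 24 h libraries. The genes of smallest p were Gpnmb (3.90), Psrc1 (-2.15), Tpx2 (-1.29), Spag5 (-1.44) and Arhgap11a (-1.48), each value the first-day minus the second-day log2 fold change.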

How the results depend on the processing

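In vehicle 2781 genes were higher and 2350 lower at 24 h. DESeq2 gave 2947 and 2703, its size factors 2697 and 2426, no filter 2543 and 2307, and leaving out 1 library 2385 to 2695 higher and 1968 to 2359 lower. By the authors' deposited table there were 5503 calls (2888 higher, 2615 lower), 5046 of them also called here in the same direction. Of 221 named genes that were called, 19 lost the call without at least 1 library, with adjusted p up to 0.124.

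Replicate numbers gave no clear pairing of the libraries. Same-numbered 3 h and 24 h libraries had correlations of their deviations from -0.112 to 0.122, and 2 of 5 correlated best with their own number. This check cannot tell whether same-numbered libraries shared a litter or day. With the replicate number as a block 2357 genes were higher and 1955 lower.

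Leaving out pairs of libraries was chosen after seeing the epidermal transcripts. Without replicates 4 and 5 of 24 h 2043 genes were higher and 1825 lower, and without replicates 1 and 3 of 24 h 2520 and 2226. The log2 fold change changed sign for Krt14 (0.53) and Krt5 (0.13) without replicates 4 and 5, and for Krt1 (-0.0199), Sema3c (0.16), Ugdh (0.025) and Ramp2 (-0.17) without replicates 1 and 3. Of these only Krt1 was called with all libraries, and none was called in the reduced set. The cause was not tested.

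In the comparison of the first with the second day, 718 genes had the more positive and 532 the more negative first day. Without replicates 4 and 5 of 24 h the counts were 232 and 246, and leaving out 1 library gave 457 to 737 and 388 to 576, with the lowest of the more positive counts without replicate 5 (457) and 4 (470) of 24 h. The cause was not tested. The test of the difference in the 24 h against 3 h change between 10 µM and vehicle gave 0 calls under every alternative run. It does not compare 10 µM with vehicle at either time. Low-count genes such as inflammatory mediators and Shh are limited by depth.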
